A study of Homo sapiens with 29 samples.

Results

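The genes described here encode the nuclear subunits of the mitochondrial respiratory chain and ATP synthase. They were chosen by symbol, as the protein-coding genes whose names begin with NDUFA, NDUFB, NDUFC, NDUFS, NDUFV, SDHA to SDHD, UQCR, COX4I, COX5, COX6, COX7, COX8 or ATP5, without the assembly factors named NDUFAF and SDHAF and without pseudogenes. No measured value entered that choice. The names matched 88 reference genes, and 84 of them had a probe among the 22439 genes that could be named on the array through RefSeq accessions. They comprised 37 subunits of complex I, 4 of complex II, 8 of complex III, 16 of complex IV and 19 of complex V. Where a gene had several probes, the brightest on average in the series matrix was used. A probe entered the tests when it was well above background on at least 2 arrays, which left 83 of the 84 subunits among 18341 genes. COX7B2 was the subunit not tested, as it was well above background on 1 array only. UQCRHL, COX7A1, ATP5MF-PTCD1, NDUFC2-KCTD14 and the subunits encoded by mitochondrial DNA were not analysed here.

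The study asked what the zinc finger transcription factor ZNF148 does in human muscle precursor cells. LHCN-M2 myoblasts, a clonal human skeletal muscle line immortalized with telomerase and cyclin-dependent kinase 4, received 20 nM of a nontargeting siRNA (siControl) or of an siRNA pool against ZNF148 (siZNF148). Cells were collected at 24 h in subconfluent cultures in growth media, and at 48 h and 96 h in confluent growth media or in differentiation media, and RNA was hybridized to 29 one-colour Agilent arrays. Each of the 10 groups held 3 arrays, except siControl at 96 h in growth media, which held 2. The line is 1 clone. The paper reports that siZNF148 also raised myosin heavy chain and myogenin in primary human myoblasts, with a slightly weaker effect. All arrays here are of LHCN-M2, so the response of the subunits may not be that of primary myoblasts. The hours in differentiation media may count from the change of media, so that equal hours need not mean equal time after transfection.

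Respiratory chain complexes I to IV pass electrons from NADH and succinate to oxygen. Complexes I, III and IV pump protons across the inner mitochondrial membrane, and complex V uses that gradient to make ATP. Skeletal muscle cells gain mitochondria and shift toward oxidative metabolism as myoblasts leave the cell cycle and fuse. Several subunits, above all in cytochrome c oxidase (complex IV), exist as paralogous isoforms, some of them restricted to muscle or to other tissues.

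ZNF148 itself was lower in all 5 comparisons of siZNF148 with siControl, by 2.88-fold at 24 h, 4.21-fold and 4.94-fold at 48 h and 96 h in growth media, and 5.06-fold and 6.66-fold at 48 h and 96 h in differentiation media. Between 41.5% and 56.5% of probes were well above background on an array, and no subunit probe was saturated on any array. The cells carried the myoblast markers, with MYOD1, DES, CDH15 and ITGA7 well above background on all 29 arrays and PAX7 on 20, while KRT5, KRT14 and ALB were above background on none. PTPRC, PECAM1 and CDH5, known from blood and endothelial cells, were above background on 26, 26 and 29 arrays. The 9 tested markers of differentiated muscle moved with the knockdown. All 9 were higher in siZNF148 cells at 48 h and at 96 h in growth media, 8 at 48 h and 3 at 96 h in differentiation media, and none was called at 24 h. Of the 8 proliferation markers, all 8 were lower at 48 h and 96 h in growth media and at 96 h in differentiation media, 4 were lower and 2 higher at 48 h in differentiation media, and 5 were higher at 24 h. Their median ran from 11.66 to 11.68 in siControl and from 12.32 to 12.38 in siZNF148 at 24 h, and from 11.17 to 11.68 against 8.90 to 9.08 at 48 h in growth media. One array stood apart. On siControl replicate 1 at 48 h in growth media the median of the differentiated muscle markers was 16.03 on the log2 scale, against 7.84 and 7.78 on replicates 2 and 3. In the other groups it ran from 5.07 to 5.63 at 24 h, and later from 10.18 to 14.85 in siControl and from 17.27 to 17.93 in siZNF148. The counts of subunits in comparisons that hold that array, and the changes of COX6A2 and COX8C at 48 h in growth media, are given below with and without it. All comparisons share a single estimate of each probe's spread. Where this array deviates, it therefore also widens the SE of comparisons that do not hold it, which were not refitted without it. At 96 h in differentiation media, where 3 muscle markers passed, their median was 14.73 to 14.85 in siControl and 17.90 to 17.93 in siZNF148. In bulk RNA, more differentiated cells and more RNA per cell cannot be told apart, and the part of these markers in the changes below was not tested.

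At 24 h, with ZNF148 already reduced, the respiratory chain subunits as a group barely moved. From 48 h on, most of them were higher in siZNF148 cells than in siControl cells, in growth media as well as in differentiation media, and the median rise was largest at 48 h in differentiation media. The median log2 fold change of the 83 subunits was −0.03 at 24 h, 0.21 and 0.23 at 48 h and 96 h in growth media, and 0.48 and 0.23 at 48 h and 96 h in differentiation media, while the median over all 18341 genes lay between −0.06 and 0.00. The shift was therefore small for a single gene and shared by many. On single arrays, the median log2 intensity of the 83 subunits ran from 14.44 to 14.49 in siControl and from 14.65 to 14.69 in siZNF148 at 48 h in growth media, and from 14.32 to 14.37 against 14.80 to 14.84 at 48 h in differentiation media. The groups did not overlap on this measure at any time point. At 24 h the order was the opposite, 14.55 to 14.62 in siControl and 14.45 to 14.48 in siZNF148.

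Counts of subunits that passed the test (limma, Benjamini-Hochberg adjusted p under 0.05 over all tested probes) followed the medians. At 24 h, 5 subunits were higher and 11 lower, against 15.8% and 16.8% of all genes, and this split turned with the scaling: 20 were higher and 3 lower when arrays were scaled to their 75th percentile. In growth media at 48 h, 45 of 83 (54.2%) were higher and 8 (9.64%) lower, where 27% of all genes were higher and 31.2% lower. Without the siControl array that stood apart, the counts were 44 and 9. At 96 h in growth media, 48 were higher and 3 lower, against 26.1% and 30.4% of all genes. At 48 h in differentiation media, 58 (69.9%) were higher and 9 lower, against 30.3% and 34.8%, and under 75th percentile scaling 66 were higher and 1 lower. At 96 h in differentiation media, 53 were higher and 4 lower, against 25.3% and 34.1%, and under 75th percentile scaling 71 were higher and 0 lower, more than the 66 at 48 h. Few changes were large. In differentiation media, 12 subunits (14.5%) were more than 2-fold higher at 48 h, a share near the 15.2% of all genes, and 3 (3.61%) at 96 h, against 10.5%. In growth media, 2 (2.41%) were so at 48 h and 3 (3.61%) at 96 h, against 11.7% and 12.3%. Among the 11 falls at 24 h was COX8C, which was above background on none of those arrays. The labels describe the arrays of a group as biological replicates.

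**Figure D1:**
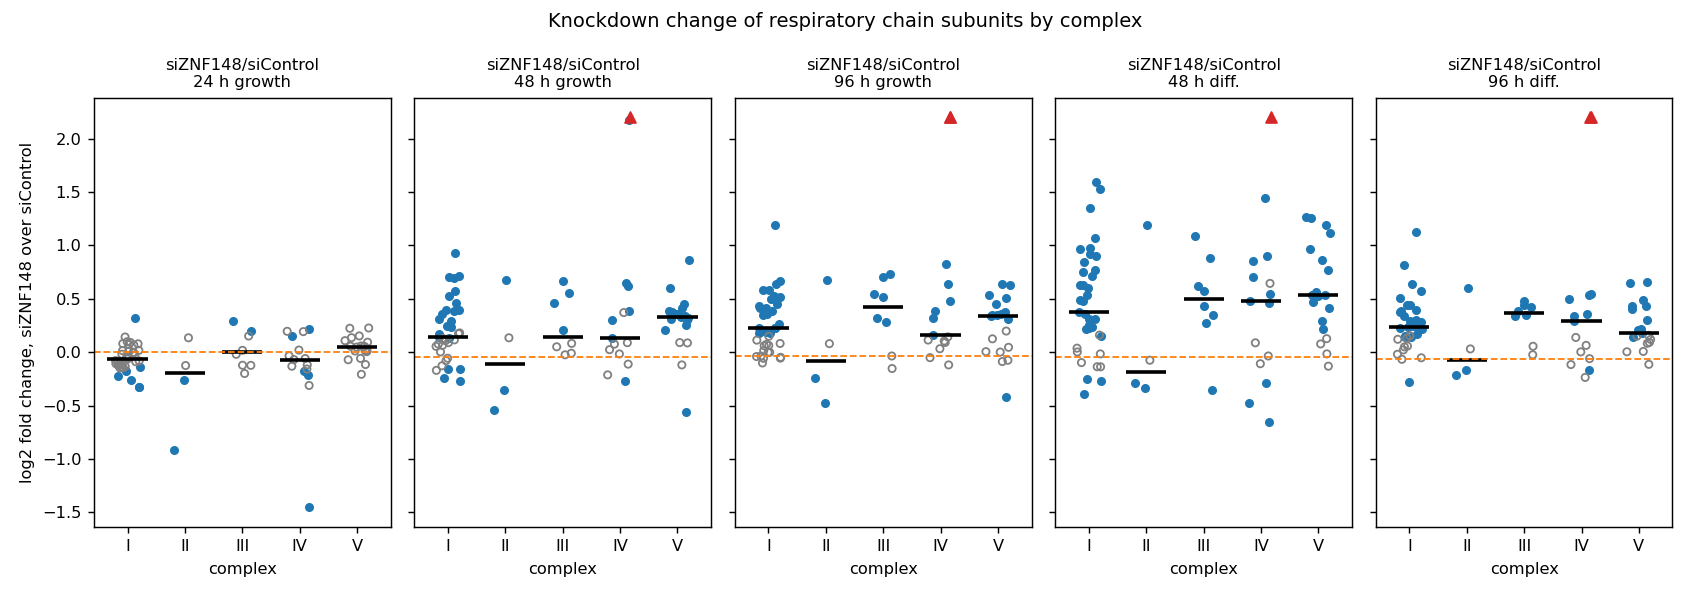
Log2 fold change of siZNF148 over siControl (vertical axis) for each tested subunit, by complex (horizontal axis), in the 5 knockdown comparisons. Filled points passed the test, open points did not, black bars are the median of each complex, the dashed line is the median of all genes, and red triangles mark values above the axis (COX6A2 in 4 panels, with COX8C in the panels for 96 h). The black bars of complexes I, III, IV and V lie above the dashed line in the 4 later comparisons, and that of complex II does not rise with them.

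The difference between the 48 h and 24 h knockdown effects in growth media was itself tested. The 24 h cultures were subconfluent and the 48 h cultures confluent, so time and confluence cannot be told apart in it. For 42 subunits the effect was more positive at 48 h and for 1, ATP5IF1, more negative, where 21.5% and 24.4% of all genes were so. At 48 h the effect was more positive in differentiation than in growth media for 42 subunits and more negative for 7, against 20.7% and 21.8% of all genes. At 96 h it was more positive in differentiation media for 3 and more negative for 6, against 14.4% and 17.3%, a split that turned to 22 and 1 under 75th percentile scaling. Without the siControl array that stood apart, 43 and 1 differed between 48 h and 24 h, and 39 and 9 between media at 48 h. These differences share arrays with the comparisons they are built from.

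Across the 4 comparisons from 48 h on, 33 of the 83 subunits (39.8%) were higher in every one, against 12.3% of all genes. They comprised 14 subunits of complex I, 1 of complex II, 4 of complex III, 6 of complex IV and 8 of complex V. SDHA and SDHC (2.41%) were the only subunits lower in all 4, against 16.3% of all genes. With arrays scaled to the 75th percentile, 0 subunits were lower at 96 h in differentiation media, so this pattern depended on the scaling. A further 6 subunits, ATP5MC2, COX4I1, NDUFA1, NDUFS4, NDUFV1 and SDHD, passed the test in none of these 4. NDUFV3, UQCR10, COX5A and COX8A (4.82%) were higher at 24 h as well, against 3.04% of all genes. At 24 h the further probes of COX5A (0.18) and COX8A (0.02) did not pass, and the COX8A call was lost under 12 of 17 alternatives.

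**Figure D2:**
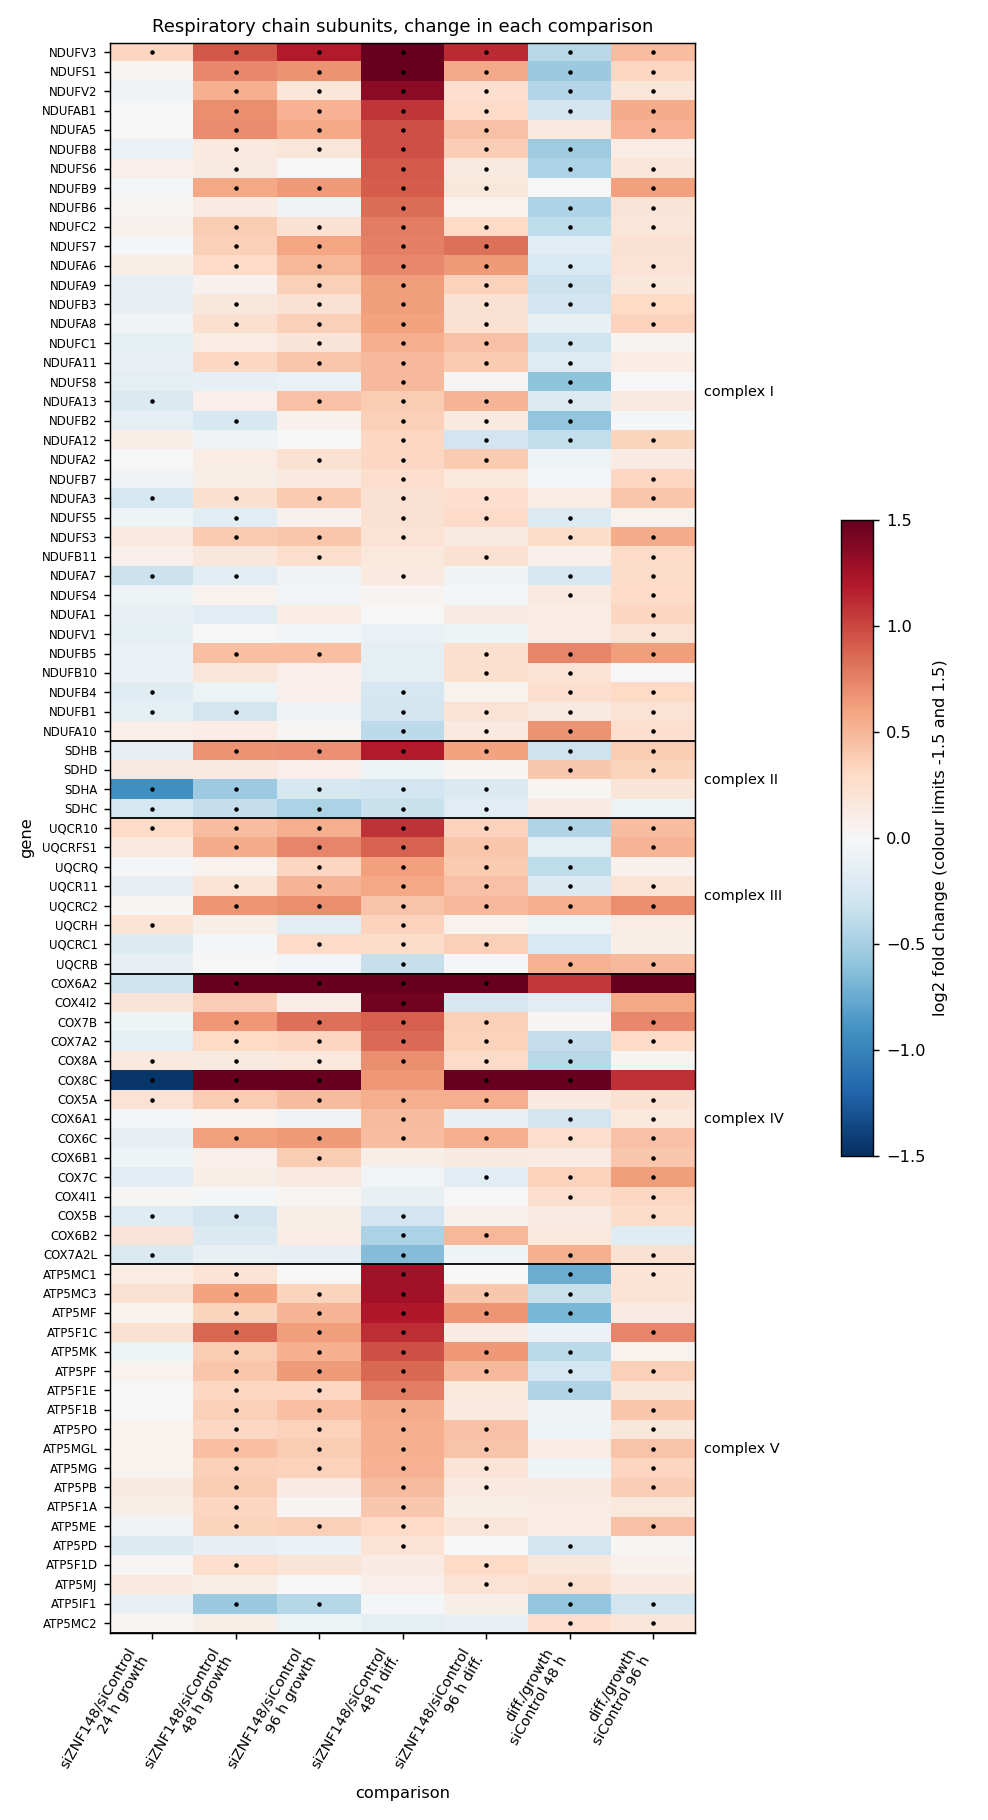
Log2 fold change (colour, limited to −1.5 and 1.5) of tested subunits (rows, grouped by complex and ordered by their change at 48 h in differentiation media) in the 5 knockdown comparisons and the 2 comparisons of differentiation with growth media in siControl cells (columns). Dots mark changes that passed the test. The column for 48 h in differentiation media holds 58 rises and 9 falls, and the column for the media change in siControl cells at 48 h holds 34 falls.

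The largest change in any complex was that of COX6A2, the heart and skeletal muscle isoform of cytochrome c oxidase subunit VIa. On the log2 scale it was at 5.25, 5.14 and 5.44 on the siControl arrays and at 5.27, 4.10 and 5.53 on the siZNF148 arrays at 24 h, where the groups overlapped and 4 of 6 spots were well above background. At 48 h in growth media it stood at 13.87, 7.78 and 7.38 in siControl and at 15.38, 15.51 and 15.57 in siZNF148. The high siControl value was that of replicate 1, the array with high muscle markers. At 96 h in growth media the siControl arrays held 9.15 and 9.15 and the siZNF148 arrays 15.49, 15.40 and 15.55. In differentiation media siControl arrays read 11.28, 10.74 and 10.18 at 48 h and 11.85, 11.73 and 12.12 at 96 h, while all 6 siZNF148 arrays lay between 15.78 and 15.99. Every siZNF148 array from 48 h on was thus above every siControl array of its time and media.

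The log2 fold change of COX6A2 was 5.81 (SE 0.96, adjusted p = 2.93e-05, limma) at 48 h in growth media, or 56.2-fold, and 7.91 without siControl replicate 1. It was 6.33 (SE 1.08) at 96 h in growth media, and 5.16 and 3.95 (SE 0.96 each) at 48 h and 96 h in differentiation media. With only the 6 arrays of the 48 h growth comparison in the fit, the change did not pass the test. Within slides, the 48 h growth difference was 1.64 on the slide that held siControl replicate 1 and 7.79 and 7.999 on the others. The change of media alone, in siControl cells, gave 1.06 at 48 h and 2.75 at 96 h, neither of which passed (limma adjusted p = 0.455 and 0.0549). The spread of a probe was estimated over all 29 arrays, so siControl replicate 1 of 48 h also widened the SE at 96 h. At 96 h the siControl arrays in differentiation media (11.73 to 12.12) all lay above those in growth media (9.15 and 9.15). The missed threshold is therefore not evidence that COX6A2 was unchanged. At 48 h the difference of media in siControl cells was −3.68 on the slide with siControl replicate 1 and 3.50 and 3.35 on the others.

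COX6A1, the subunit VIa isoform found in most tissues, did not pass the test in growth media. Its log2 values on the 6 siZNF148 arrays of 48 h and 96 h in growth media lay between 16.09 and 16.39, and on the 5 siControl arrays between 16.15 and 16.35. The fold change was 0.02 at 48 h and −0.05 at 96 h in growth media and −0.12 at 96 h in differentiation media, none called, and 0.48 (SE 0.05, adjusted p = 2.26e-08, limma) at 48 h in differentiation media.

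**Figure D3:**
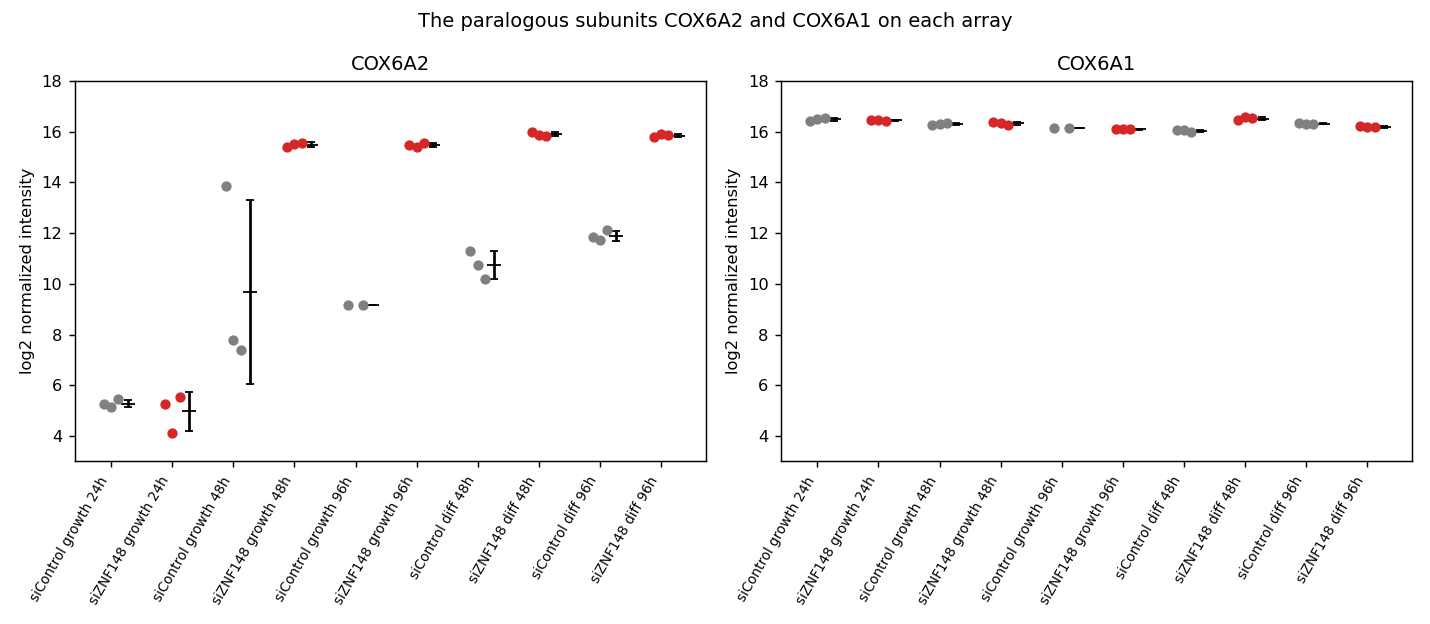
Log2 normalized intensity (vertical axis) of COX6A2 and COX6A1 on each array (points) in the 10 groups (horizontal axis), with the mean and SD of each group beside the points (grey for siControl, red for siZNF148). COX6A2 rises from about 5 at 24 h to above 15 in siZNF148 cells from 48 h on, with 1 siControl array at 13.87 at 48 h, while the largest change of COX6A1 between siControl and siZNF148 is 0.48. Heights are comparable within a gene, not between the probes.

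The sequences before the transcription starts of COX6A2 and COX6A1 are shown because the isoforms responded so differently. Each is the 250 bases upstream of the RefSeq start in GRCh38.p14, 5′ to 3′ on the gene's strand, chr16:31428361-31428610 on the minus strand for COX6A2 and chr12:120437863-120438112 on the plus strand for COX6A1. Capitals mark matches on either strand to the letters searched, CAGCTG (an E-box of the kind myogenic factors bind), CTA and TAG with 4 bases of any kind between them (a MEF2-like motif), GGGCGG (a GC box), CCGGAAG (an ETS motif), GCGCA and GCGC with 1 base of any kind between them (the NRF1 core) and AAGATGGC (a YY1 motif).
COX6A2: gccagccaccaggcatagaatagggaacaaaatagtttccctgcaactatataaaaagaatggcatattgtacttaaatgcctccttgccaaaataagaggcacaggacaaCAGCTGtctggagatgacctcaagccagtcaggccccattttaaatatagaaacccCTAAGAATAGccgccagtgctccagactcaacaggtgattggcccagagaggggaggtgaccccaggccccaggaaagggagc
COX6A1: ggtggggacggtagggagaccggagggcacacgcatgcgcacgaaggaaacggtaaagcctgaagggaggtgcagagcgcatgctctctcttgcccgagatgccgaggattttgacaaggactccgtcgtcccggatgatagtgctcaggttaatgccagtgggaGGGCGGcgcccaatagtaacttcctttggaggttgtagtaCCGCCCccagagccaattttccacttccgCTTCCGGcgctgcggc
In COX6A2 the capitals are a CAGCTG beginning 139 bases and a MEF2-like match beginning 83 bases before the start. In COX6A1 they are a GC box on each strand, 85 and 45 bases before the start, and an ETS match on the other strand.

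Promoter sequence, from 250 bases before to 50 bases after the start, was at hand for 70 of the 84 subunits and for 16975 genes on the array. COX6A2 was the only one of the 70 with the MEF2-like motif, which 2.45% of all these promoters held. The NRF1 core was present in 17 of the 70 (24.3%) and in 8.21% of all promoters, CCGGAAG in 28.6% and 13.6%, and AAGATGGC in 15.7% and 3.81%. GGGCGG was in 60% of the subunit promoters and 56.1% of all, and CAGCTG in 21.4% and 17.7%. A match of letters is a description of the sequence and not evidence of binding.

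Apart from the dim isoforms described below, the other subunits of complex IV that passed the test changed by far less. Among the isoforms, COX7A2 (a subunit VIIa form of most tissues) was higher in all 4 later comparisons, by 0.30, 0.32, 0.85 and 0.34 on the log2 scale in the order 48 h and 96 h in growth media, then 48 h and 96 h in differentiation media. COX7B was higher by 0.65, 0.83, 0.90 and 0.35 in the same order. COX8A rose by 0.70 at 48 h in differentiation media. Its changes of 0.14 and 0.16 in growth media did not pass with all its probes averaged. COX4I1, the subunit IV isoform of most tissues, stayed within 0.11 of 0 in all 5 knockdown comparisons. COX7A2L, a relative of COX7A2 that takes part in assembling supercomplexes, went the other way at 48 h in differentiation media. It was at 14.10, 14.10 and 14.08 in siControl and 13.36, 13.50 and 13.46 in siZNF148, a fall of 0.65 (SE 0.05, adjusted p = 3.81e-10, limma), and a further probe of the gene fell by 0.49.

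The isoforms known mainly from other tissues were dim or unsteady. COX8C, a testis form of subunit VIII, was well above background on 16 of 29 arrays. It was above background on no array of either group at 24 h. At 96 h in growth media it was above background on 3 of 3 siZNF148 arrays (6.39, 6.17 and 6.06) and on none of the 2 siControl arrays, at least 5.15-fold higher in siZNF148 when siControl was set to the lowest signal above background, with adjusted p = 4.59e-06 in limma. It also passed the test at 48 h in growth media and at 96 h in differentiation media, where 3 siZNF148 arrays and 1 siControl array were above background. The fitted changes there, 2.18 and 2.78, are read against siControl values mostly near background and were 0.50 and 0.98 with normexp background correction. The former was 2.82 without the siControl array that stood apart. COX4I2, well above background on 19 arrays, was higher by 1.44 (SE 0.31) at 48 h in differentiation media, between 5.68 and 6.08 in siZNF148 against 3.91 to 4.81 in siControl, and by 0.46 with normexp background correction. COX6B2 was lower by 0.48 at 48 h and higher by 0.50 at 96 h in differentiation media, and neither change passed on its other probe (−0.10 and 0.40). Its counterpart of most tissues, COX6B1, was higher by 0.38 at 96 h in growth media.

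COX5B, the subunit Vb gene that earlier literature on ZNF148 names, was lower in siZNF148 at 3 of the 5 times. It stood at 14.97, 14.87 and 14.87 in siControl and 14.70, 14.70 and 14.77 in siZNF148 at 24 h, and at 14.75, 14.82 and 14.89 against 14.57, 14.57 and 14.50 at 48 h in growth media. At 48 h in differentiation media the values were 14.92, 14.98 and 14.95 against 14.73, 14.63 and 14.62. At each of these times the groups did not overlap, and the falls were 0.18, 0.27 and 0.29 on the log2 scale (SE 0.06 each). Their limma adjusted p-values were 0.0445, 0.00117 and 0.000491. At 96 h the change was 0.09 in growth media and 0.06 in differentiation media, neither called. With arrays scaled to the 75th percentile the changes at 24 h and at 48 h in differentiation media were −0.06 and −0.05 and no longer passed, that at 96 h in differentiation media was 0.26 and passed, and that at 48 h in growth media still passed. With only the 6 compared arrays in the fit, neither fall in growth media passed.

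Complex I, the entry point for electrons from NADH, had 18, 22, 27 and 27 of 37 subunits higher in the 4 later comparisons, in the same order as above, and 4, 0, 3 and 1 lower. Of all genes, 27%, 26.1%, 30.3% and 25.3% were higher and 31.2%, 30.4%, 34.8% and 34.1% lower. NDUFV3, a small subunit of the flavoprotein arm, had the largest change of the complex in all 4. It was at 13.70, 13.42 and 13.32 in siControl and 14.43, 14.36 and 14.44 in siZNF148 at 48 h in growth media, and at 13.12, 13.03 and 13.05 against 14.66, 14.66 and 14.67 at 48 h in differentiation media. The siZNF148 arrays were above all siControl arrays at every time, 24 h included. Its log2 fold changes were 0.32 at 24 h, 0.93 and 1.19 in growth media, and 1.59 and 1.12 in differentiation media (SE 0.07 to 0.08), and it was lower by 0.41 in siControl cells at 48 h in differentiation than in growth media.

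NDUFS1, the largest iron-sulfur subunit of the NADH-oxidizing module, and NDUFV2, its neighbour in that module, were also higher in all 4 later comparisons. Each had its largest rise at 48 h in differentiation media. NDUFS1 did not pass the test at 24 h (0.02), and was higher by 0.72 and 0.67 in growth media, and higher by 1.53 and 0.57 in differentiation media. NDUFV2 gave −0.05 at 24 h, not called, and −0.19 on its other probe, which passed. It was higher by 0.53 and 0.18 in growth media, the latter 0.05 and not called on its other probe. At 96 h in differentiation media it was higher by 0.25. The rise was 1.35 at 48 h in differentiation media, where siControl arrays held 14.35, 14.31 and 14.26 and siZNF148 arrays 15.68, 15.64 and 15.65. NDUFAB1, the mitochondrial acyl carrier protein, was higher by 1.07 there. NDUFA5, an accessory subunit, was higher by 0.71 at 48 h in growth media, and NDUFS7, a core iron-sulfur subunit, by 0.82 at 96 h in differentiation media. NDUFA10 was lower by 0.39 at 48 h in differentiation media by its brighter probe, and by 0.05, not called, on its other probe. NDUFB1 was lower by 0.27 and NDUFA12, another accessory subunit, by 0.28, the first at 48 h in growth media and the second at 96 h in differentiation media, where the other NDUFA12 probe gave −0.12 and did not pass. NDUFA10, NDUFB1 and NDUFA12 also passed the test as rises in differentiation media. NDUFA12 was higher by 0.31 at 48 h, and by 0.47 on its other probe. NDUFA10 was higher by 0.14 at 96 h, and by 0.32 on its other probe, and NDUFB1 was also higher at 96 h. NDUFA7 was lower by 0.32 at 24 h.

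**Figure D4:**
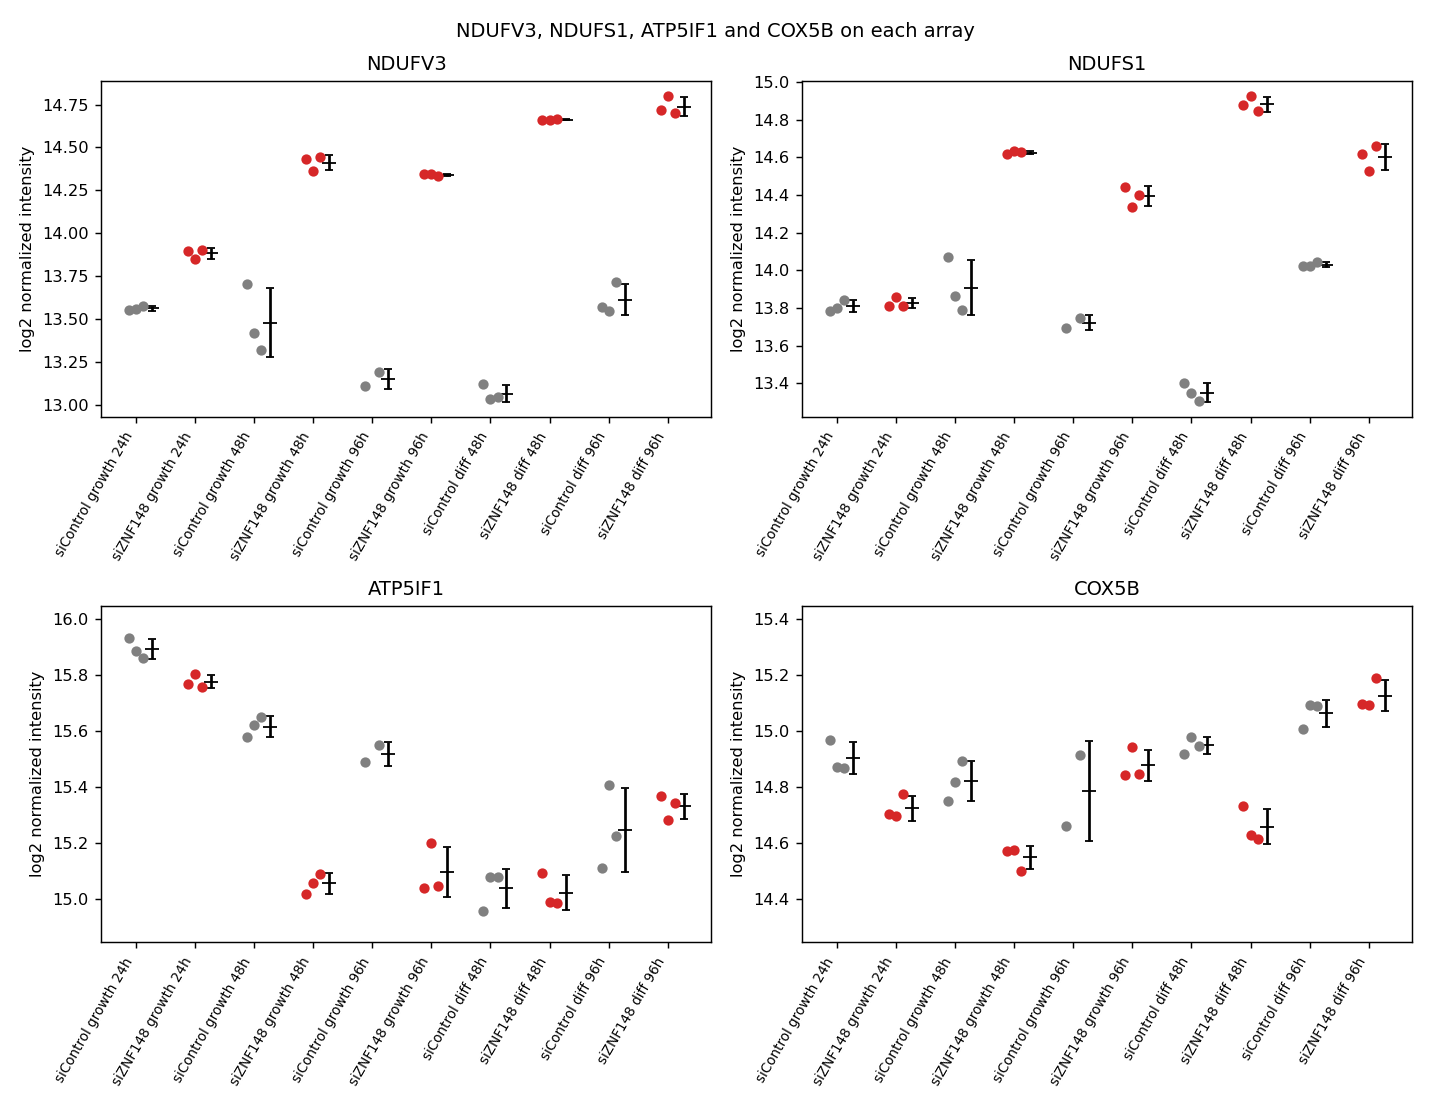
Log2 normalized intensity (vertical axes, not starting at 0) of NDUFV3, NDUFS1, ATP5IF1 and COX5B on each array (points) in the 10 groups (horizontal axis), with the mean and SD of each group beside the points (grey for siControl, red for siZNF148). NDUFV3 and NDUFS1 are higher in siZNF148 from 48 h on, ATP5IF1 is lower in siZNF148 in growth media at 48 h and 96 h, and COX5B differs by less than 0.30 throughout.

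The subunits of complex II, the succinate dehydrogenase that also serves the citric acid cycle, moved apart. SDHB, the iron-sulfur subunit, was among the larger rises. It was at 12.60, 12.39 and 12.32 in siControl and 13.13, 13.11 and 13.10 in siZNF148 at 48 h in growth media, a change of 0.68 (SE 0.08, adjusted p = 2.32e-07, limma). It was higher by 0.68 at 96 h in growth media and by 1.19 and 0.60 in differentiation media, and at 24 h it did not pass the test.

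SDHA, the flavoprotein that binds succinate, had the largest fall of any subunit above background, and had it at 24 h. The siControl arrays read 14.05, 14.01 and 13.90 and the siZNF148 arrays 13.14, 13.04 and 13.04, a log2 fold change of −0.91 (SE 0.08, adjusted p = 1.48e-08, limma), or 1.88-fold lower. The 3 further SDHA probes gave −0.94, −0.93 and −0.93. By 48 h in growth media SDHA was at 13.69, 13.76 and 13.94 in siControl and 13.27, 13.30 and 13.20 in siZNF148, lower by 0.54, and the further probes fell by 0.46 to 0.57. The later changes of the chosen probe were −0.24 at 96 h in growth media and −0.29 and −0.21 in differentiation media. Of these, the one at 96 h in growth media was not called on any further probe, which gave −0.11, 0.06 and −0.08. At 96 h in differentiation media a further probe passed (−0.18) and the others did not (−0.07 and −0.12). With arrays scaled to the 75th percentile, neither 96 h change passed (−0.23 in growth and −0.07 in differentiation media). The 48 h effect in growth media was smaller in size than that at 24 h, with a tested difference of 0.37 (adjusted p = 0.00925, limma). SDHA has closely similar pseudogenes, whose transcripts the probes may also bind.

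Of the membrane anchors, SDHC was lower in all 5 comparisons, by 0.26, 0.36 and 0.48 in growth media and 0.34 and 0.17 in differentiation media, but its further probes did not pass the test in differentiation media (−0.06 and −0.01 at 48 h, −0.07 and −0.28 at 96 h) or at 48 h in growth media (−0.16 and −0.43). At 24 h and at 96 h in growth media 1 of these probes passed (−0.32 and −0.89). With arrays scaled to the 75th percentile, the chosen SDHC probe no longer passed at 24 h (−0.11) or in differentiation media (−0.06 at each time). SDHD passed the test in none of the 5.

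**Figure D5:**
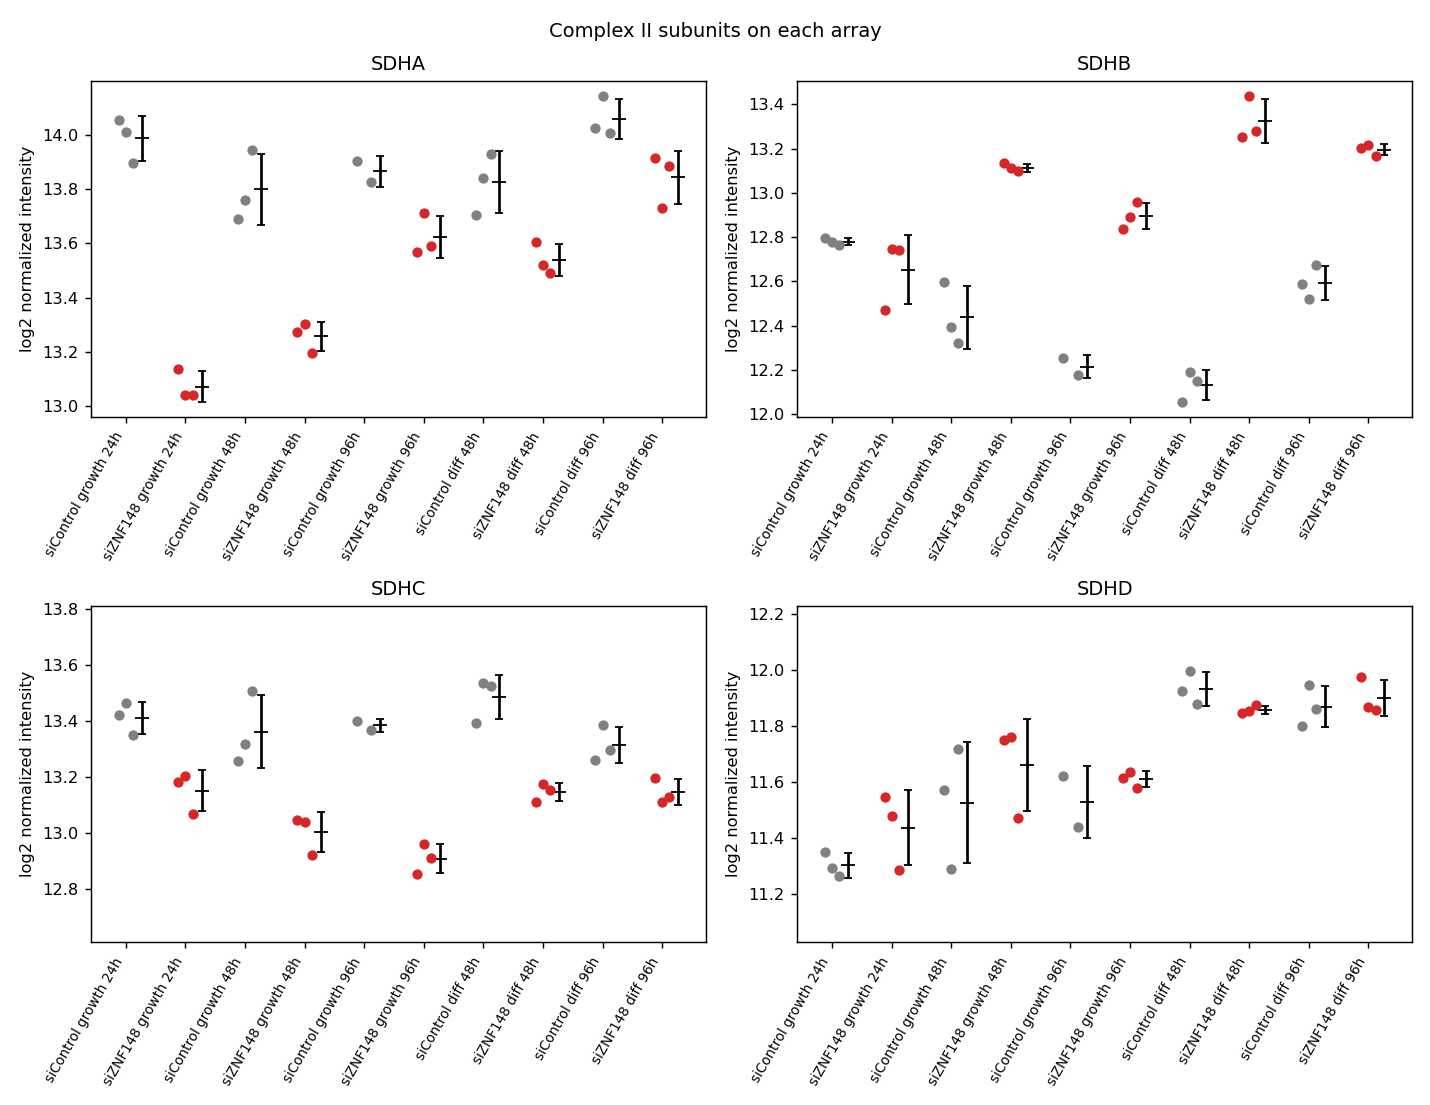
Log2 normalized intensity (vertical axes, not starting at 0) of the 4 complex II subunits on each array (points) in the 10 groups (horizontal axis), with the mean and SD of each group beside the points (grey for siControl, red for siZNF148). At 24 h SDHA falls from a mean of 13.99 to 13.07, whereas SDHB is higher in siZNF148 from 48 h on and SDHD overlaps between groups at 4 of the 5 times.

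The upstream sequences of SDHA, SDHB and NDUFV3 are given because SDHA had the largest fall at 24 h and SDHB and NDUFV3 were higher in all 4 later comparisons. They were cut and marked as above, and lie at chr5:218070-218319 on the plus strand, chr1:17054033-17054282 on the minus strand and chr21:42893059-42893308 on the plus strand.
SDHA: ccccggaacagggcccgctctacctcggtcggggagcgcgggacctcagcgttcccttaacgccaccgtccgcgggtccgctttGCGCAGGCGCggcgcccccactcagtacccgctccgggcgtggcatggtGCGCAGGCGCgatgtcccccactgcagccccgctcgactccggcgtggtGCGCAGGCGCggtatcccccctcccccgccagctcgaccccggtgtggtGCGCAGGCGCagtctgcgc
SDHB: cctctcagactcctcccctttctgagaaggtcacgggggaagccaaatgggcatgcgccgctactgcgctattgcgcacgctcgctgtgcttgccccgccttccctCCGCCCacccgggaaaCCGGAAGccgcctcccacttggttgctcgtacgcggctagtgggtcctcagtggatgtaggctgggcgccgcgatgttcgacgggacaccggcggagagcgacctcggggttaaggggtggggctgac
NDUFV3: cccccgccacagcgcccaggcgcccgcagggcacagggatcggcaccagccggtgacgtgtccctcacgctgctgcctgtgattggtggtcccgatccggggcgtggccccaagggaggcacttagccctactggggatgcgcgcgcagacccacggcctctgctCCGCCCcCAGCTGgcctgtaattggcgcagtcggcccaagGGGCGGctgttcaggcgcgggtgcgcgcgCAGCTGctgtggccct
The SDHA stretch held 4 matches to the NRF1 core, beginning 166, 117, 68 and 19 bases before the start. SDHB held a GC box and an ETS match, and NDUFV3 held a GC box on each strand and CAGCTG at 2 places.

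Complex III, which hands electrons from ubiquinol to cytochrome c, had 4, 6, 7 and 6 of 8 subunits higher in the 4 later comparisons. The shares of all genes are those given with complex I. UQCRFS1, the Rieske iron-sulfur protein, was higher by 0.73 and UQCRC2, a core protein, by 0.70 at 96 h in growth media. UQCR10 was higher by 1.09 at 48 h in differentiation media and by 0.29 at 24 h, where UQCRH, the hinge protein, was higher by 0.20 on the chosen probe and by 0.06, not called, on its other probe. For UQCR11, 1 siControl array at 48 h in differentiation media was left out of the fit because its spot was flagged. UQCRB was the one subunit of the complex that fell, by 0.35 at 48 h in differentiation media on the chosen probe and not on its other probe (0.07). CYC1 and CYCS, the cytochromes c1 and c, which the naming rule does not take in, were higher by 0.65 and 0.74 at 48 h in growth media. CYCS was higher by 2.30 at 48 h in differentiation media.

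Complex V, the ATP synthase, had 15, 11, 15 and 11 of 19 subunits higher in the 4 later comparisons and 1, 1, 0 and 0 lower. For these counts too, the shares of all genes are those given with complex I. ATP5F1C, the gamma subunit of the rotor, was higher by 0.86 at 48 h in growth media and by 1.11 at 48 h in differentiation media. ATP5MF and ATP5MK, small membrane subunits, were higher by 0.66 and 0.65 at 96 h in differentiation media. ATP5MC1, ATP5MC2 and ATP5MC3 encode the same mature c subunit of the membrane ring with different import leaders, and their transcripts moved unequally. At 48 h in differentiation media ATP5MC1 was at 13.07, 12.88 and 12.86 in siControl and 14.26, 14.20 and 14.15 in siZNF148, and ATP5MC3 at 16.22, 16.26 and 15.94 against 17.41, 17.39 and 17.39. Both rose by 1.26 on the log2 scale, with adjusted p = 2.6e-13 and 3.32e-11 in limma. ATP5MC2, at 16.63, 16.53 and 16.46 against 16.45, 16.42 and 16.36, gave −0.13 and was not called in any knockdown comparison. ATP5MC3 was also higher in the other 3 later comparisons, by 0.34 to 0.60, and ATP5MC1 at 48 h in growth media by 0.21. ATP5MGL is a close copy of ATP5MG, and the probes of the pair may share transcripts.

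ATP5IF1, taken in by its symbol, is an inhibitor that restrains the ATP synthase from running backwards rather than a structural part of it. It was the only gene counted with complex V that was called lower in a knockdown comparison. In growth media it stood at 15.58, 15.62 and 15.65 in siControl and 15.02, 15.06 and 15.09 in siZNF148 at 48 h, and at 15.49 and 15.55 against 15.04, 15.20 and 15.05 at 96 h. The falls were 0.56 (SE 0.07, adjusted p = 3.65e-07, limma) and 0.42. In differentiation media the changes were −0.02 and 0.08 and were not called. The effects of knockdown differed between media by 0.54 at 48 h and 0.51 at 96 h (limma, p adjusted to 8.66e-05 and 0.000643), and siControl cells themselves had less ATP5IF1 in differentiation than in growth media, by 0.58 and 0.27.

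The change of media in siControl cells addresses how the subunits move in differentiation media without knockdown. At 48 h, 18 subunits were higher and 34 lower in differentiation media, against 25.4% and 24.5% of all genes (12 and 40 under 75th percentile scaling), and 20 and 33 without the siControl array that stood apart. The subunits that moved included ATP5MC1, lower by 0.75, and NDUFS1, lower by 0.56. COX7A2L was higher by 0.53 and NDUFA10, UQCRC2 and NDUFB5 were also higher. At 96 h, 54 were higher and 1, ATP5IF1, was lower, against 21.5% and 22.4% of all genes, with COX7B higher by 0.72. With arrays scaled to the 75th percentile, 24 rather than 54 were higher at 96 h. No slide held arrays of both groups at 96 h, and with slide as a term in the shared fit 52 were higher. The proliferation markers were lower in differentiation media at both times, 8 of 8, and 8 of 9 differentiated muscle markers were higher at 96 h. At 48 h none of these muscle markers was called, in a comparison that includes the siControl array that stood apart. The siControl cells at 48 h in differentiation media are also the baseline of the knockdown comparison at that time. NDUFS1 and NDUFV3 were at their lowest group means there, 13.35 and 13.07.

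Within slides, the knockdown medians of the subunits were close to the pooled ones. At 48 h in growth media the median difference was 0.19, 0.20 and 0.19 on the 3 slides, and at 48 h in differentiation media 0.47, 0.48 and 0.47. At 96 h it was 0.25 on the single slide with both groups in growth media, and 0.23 and 0.17 on the 2 slides with both groups in differentiation media. All 24 h arrays lay on 1 slide and came from subconfluent cultures, so that slide, confluence and time cannot be told apart when 24 h is set against 48 h.

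Genes that work beside the respiratory chain were counted in the same fit, in which 27%, 26.1%, 30.3% and 25.3% of all genes were higher and 31.2%, 30.4%, 34.8% and 34.1% lower in the 4 later comparisons. Of 18 citric acid cycle enzymes, 11, 12, 15 and 9 were higher and 1, 1, 2 and 2 lower in the 4 later comparisons. IDH2, a mitochondrial isocitrate dehydrogenase, was higher by 2.25 and 2.37 in growth media and by 2.94 and 2.10 in differentiation media. SUCLG2, the GTP-forming subunit of succinyl-CoA ligase, was lower by 0.95 and 1.42 and by 0.68 and 0.62. Of 46 tested assembly factors, 17, 21, 24 and 22 were higher and 11, 7, 13 and 6 lower, with the copper chaperone COX17 higher by 1.87 at 48 h in differentiation media and the complex I assembly factor NDUFAF3 lower in all 5 comparisons, by 2.30 at 24 h and 1.17 at 48 h in growth media. Of 15 tested enzymes of fatty acid oxidation, 8, 7, 6 and 7 were higher and 4, 4, 6 and 4 lower, some of these shares being near those of all genes. CPT1A, the nonmuscle carnitine palmitoyltransferase, was lower by 2.19 at 48 h in growth media, and CPT1B, the muscle form, was higher by 1.34 at 96 h in growth media.

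Regulators of mitochondrial biogenesis did not move together. Of 17 measured, 8 were higher and 2 lower at 24 h, against 15.8% and 16.8% of all genes. In the later comparisons 6, 5, 9 and 4 were higher and 2, 3, 2 and 5 lower. Of all genes, 27%, 26.1%, 30.3% and 25.3% were higher there and 31.2%, 30.4%, 34.8% and 34.1% lower. Some of the later shares of rises were near those of all genes. PPARGC1A, the coactivator PGC-1α, was higher by 0.53 at 24 h and by 0.90 and 0.91 at 48 h and 96 h in growth media, and was not called in differentiation media. ESRRA, a nuclear receptor that works with it, was higher in all 5, up to 1.26 at 96 h in growth media. GABPB1, a subunit of the ETS-family factor GABP, was higher by 2.82 and 1.61 in differentiation media. TFAM, which packages mitochondrial DNA and helps start its transcription, was higher by 0.67 at 24 h. It was lower in the 4 later comparisons, by 0.65 and 1.10 in growth media and 0.32 and 0.79 in differentiation media.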

How the data were processed

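Per the labels, RNA of LHCN-M2 cells was labelled with Cy3 and hybridized to one-colour Agilent arrays. The authors deposited Feature Extraction intensity files, with version 10.7.3.1 given in the headers, and a series matrix of log2 values that, per the deposited labels and methods, are background-subtracted and quantile normalized. The scale and centring of the matrix were checked against the scanner values, and each of its 29 columns matched its own array best. Of the headers, 14 name the build hg19 and 15 name none, so no coordinates were taken from them.

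Deposited background-subtracted intensity was put on the log2 scale, control and outlier spots were left out, spots of a probe were averaged and arrays were quantile normalized. Probes had to exceed background clearly, by the scanner software's own flag, on 2 or more arrays, and the 38717 that did were fitted with 1 mean per group over all 29 arrays (limma 3.58.1, R 4.3.3; lmFit and eBayes, two-sided, Benjamini-Hochberg adjustment). Scripts were tested on simulated data. Probes were named through RefSeq accessions, and promoters are RefSeq's for GRCh38.p14. Values give intensity within a probe and are not compared between probes. The number of arrays limits the precision. A "higher" or "lower" call is an adjusted p under 0.05.

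Genes named in the text are ZNF148, COX5B, the paralogous isoforms, the 5 largest called rises and falls of subunits at each knockdown comparison and up to 3 genes of each further list. Others, named for a change of direction or because they were the exception in a count, were chosen after their values were seen, as were the promoters printed. One subunit that the rule takes in is counted but not reported individually here. The subunits, the lists and the tests were chosen with earlier results of these data known. Alternatives tried were 75th percentile scaling, normexp background correction with an offset of 50, the matrix values, no filter, fits on the compared arrays only, array weights, replicate number or slide as a block, a 2-fold threshold, the methods' t-test, averaged probes and leaving out each array. Replicate numbers were taken from the titles.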

Additional observations from a re-analysis of the deposited data

Results flagged for a closer look

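The results below are those where the effect of the knockdown differed between times or media by a test of the difference itself (limma, adjusted p under 0.05). Between 48 h and 24 h in growth media it was more positive at 48 h for 42 subunits and more negative for 1. Between differentiation and growth media at 48 h it was more positive for 42 and more negative for 7, and at 96 h more positive for 3 (3.61%) and more negative for 6 (7.23%). Over all genes, the shares were 21.5% and 24.4%, then 20.7% and 21.8%, then 14.4% and 17.3%. The split at 96 h turned to 22 and 1 under 75th percentile scaling.

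Among subunits called at both times in growth media, NDUFA3 was lower at 24 h and higher at 48 h (difference 0.50). The fitted difference of COX8C was 3.63, but COX8C was not above background on any array at 24 h, and its change there went from −1.45 to −0.15 with normexp, so that no change of direction can be read from it. COX6A2 differed by 6.12 between 48 h and 24 h. At 48 h, NDUFS5, NDUFB2 and NDUFA7 were lower in siZNF148 in growth media and higher in differentiation media, with differences of 0.39, 0.59 and 0.31.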

How the results depend on the processing

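Scaling the arrays to their 75th percentile moved the most. Higher and lower subunits at 24 h then numbered 20 and 3, and the lower ones were 5 at 48 h in growth media, 1 at 48 h and 0 at 96 h in differentiation media. The knockdown medians became 0.068, 0.28, 0.26, 0.69 and 0.40 in the usual order, and those of media in siControl cells −0.16 at 48 h and 0.10 at 96 h, with 24 higher at 96 h. For the differences of effects, the medians were 0.18 (48 h minus 24 h), 0.45 (media, 48 h, 3 lower) and 0.17 (media, 96 h, 22 higher and 1 lower). COX7C at 96 h in differentiation media turned from −0.17 to 0.054. The median of all genes moved most at 48 h in differentiation media, from −0.05 to 0.06. The cause was not tested.

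With normexp, 6 were lower at 24 h, 7 were higher in the 96 h difference of media and the 96 h median of media was 0.22. With only the compared arrays, which leaves fewer samples, 3 were lower at 48 h in growth media, 1 at 96 h in differentiation media, and media in siControl cells gave 7 higher and 17 lower at 48 h and 33 higher and 0 lower at 96 h. Array weights gave 11 higher and 22 lower at 24 h, 5 lower at 96 h in growth media, 14 lower at 48 h in differentiation media, a 48 h media median of −0.031, 13 lower and a median of 0.22 for the 48 h difference of media, and 8 higher and 11 lower for that at 96 h. A 2-fold threshold left 0 higher and 1 lower at 24 h, then 2, 3, 12 and 3 higher and 0 lower, 1 higher and 0 lower for media at 48 h, 0 at 96 h, and 2, 1 and 0 more positive and 0 more negative for the differences. The methods' t-test gave 13 higher and 28 lower at 24 h, 6 lower at 96 h in growth media and 0 lower for media at 96 h unadjusted, and 10 higher and 22 lower at 24 h, 2 lower at 96 h in differentiation media, and 9 higher at 48 h and 0 lower at 96 h for media after Benjamini-Hochberg. Averaged probes gave a 96 h media median of 0.28 and 2 more negative at 48 h minus 24 h. Within slides, the median was 0.17 at 96 h in differentiation media, and −0.19, 0.0079 and −0.021 for media at 48 h.

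Leaving out 1 array at a time gave 2 to 5 higher and 7 to 11 lower at 24 h, 1 to 6 lower at 96 h in differentiation media, 0 to 1 lower for media at 96 h and 2 to 5 more positive for the 96 h difference. Medians ran from 0.18 to 0.22 at 48 h and from 0.23 to 0.31 at 96 h in growth media, from −0.11 to −0.034 and from 0.22 to 0.27 for media at 48 h and 96 h, and from 0.20 to 0.27, from 0.21 to 0.30 and from −0.0090 to 0.036 for the differences.

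Samples with the same replicate number did not deviate together (correlations −0.15 to 0.13), so the numbers do not pair them. With the replicate block, 4 were higher and 9 lower at 24 h, and 45 and 8 at 48 h in growth media, and no count moved by over 1.5 times. For single named subunits, 1194 alternative values kept their side of the threshold and, where called, their direction, 175 lost the call, 2 gained it and 1 turned. Dim probes (COX8C, COX4I2 and, at 24 h, COX6A2) limit what can be read from their changes.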
